A study of Mus musculus with 68 samples.

Results

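The 149 genes described here lie next to each other on mouse chromosome 14 (mm10). They are protein-coding genes that start at or after 47 Mb and end at or before 70 Mb, with a mean above 3 CPM (counts scaled to library size) in the table of clones, apart from 2 genes that the rule sets aside and that are not reported here. The interval holds 334 protein-coding rows without those 2 genes, of which 185 were at or below 3 CPM, and the whole series holds 10460 protein-coding rows above that level. The interval was chosen from RNA levels of these same lines, so the levels that define it are given as a description and carry no test. The members nearest to the CPM limit were Cdh24 (3.35 CPM) and Armh4 (3.07 CPM) inside it, and Tmem260 (2.87 CPM) and Ltb4r2 (2.86 CPM) outside it.

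The study sequenced rRNA-depleted RNA of mouse embryonic stem cells (ESCs) of the male line E14JU, of 129/Ola background, grown without feeders in serum and LIF. The 8 MCM2-2A clones have an MCM2, a subunit of the replicative helicase, that cannot bind histones because residues of its histone-binding part were changed. In MCM2-R#2 this mutation was reverted, POLE4-KO lines (3 clones) lack an accessory subunit of DNA polymerase epsilon, and 7 WT clones were used, WT#1 being the reference in all 3 tables. The rescue table holds MCM2-2A#2, MCM2-R#2 and WT#1 (4 cultures each), the POLE4 table POLE4-KO#1, #2, #3 and WT#1 (3 libraries each), and the table of clones all MCM2-2A and WT clones (39 libraries in January, March and August batches). Each line is 1 clone, so the spread between its libraries is not the spread between clones of a genotype. The January libraries of MCM2-2A#1 and MCM2-2A#2 were set against WT#1 of March, because the WT clone that the labels place in January, WT#5, was not analysed here. The labels of the MCM2-R#2 libraries read wildtype, and the group was taken from the design text and the study's sample table.

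MCM2 hands parental histones to the lagging strand behind the replication fork, and the polymerase epsilon subunits hand them to the leading strand. The genes of the interval share no pathway. What they share is a place on 1 chromosome, and for neighbouring genes a level that moves together in a line is often read as a trace of gene dosage, because most autosomal genes give RNA in proportion to the number of their copies. Long-term culture and cloning of ESCs are known to select cells with gained or lost chromosomes or segments. DNA was not measured in these tables, so every value below is an RNA level. In bulk RNA, fewer cells of a type and less RNA per cell cannot be told apart, and neither can a change in all cells of a line and a larger change in part of them.

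Total gene counts ran from 21882680 to 58079695 per culture in the rescue table, 17500744 to 25659666 per library in the POLE4 table and 26723456 to 64068260 per library in the clone table. ESC markers (Pou5f1, Sox2, Nanog and 5 others) summed to between 2296 and 4335 CPM over the libraries, against 4.97 to 172 CPM for 6 fibroblast markers and 3.46 to 39.1 CPM for 5 primitive endoderm markers, and no marker was at 0 throughout. For 143 members the WT#1 means of the 3 tables lay within 3-fold of each other. The other 6 differed by more. Ccnb1ip1 stood at 10.8 to 26.5 CPM in the clone table but at 1500 to 2966 CPM in the rescue table and 1879 to 3466 CPM in the POLE4 table. Pnp2, a near copy of the purine nucleoside phosphorylase gene Pnp, stood at 15.3 to 67.3 CPM in the clone table and never above 0.601 CPM in the other tables, where it was not tested. Entpd4 and Entpd4b had equal counts in all 12 libraries of the rescue and the POLE4 table and 0 of 39 libraries of the clone table. Why these 6 members differ was not tested, and ratios were taken only within a table. Of the members, 47 overlap another protein-coding gene.

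RNA from the interval fell into 2 levels over the lines. The regional level is the median over the 149 members of the log2 CPM ratio to WT#1 of the same table and batch, after the median over 9723 autosomal genes of other chromosomes was subtracted. It was -0.84 in MCM2-2A#3 (SD 0.02, n = 3 libraries), and MCM2-2A#4 stood at -0.86, MCM2-2A#6 at -0.86 and MCM2-2A#7 at -0.84 (n = 2 libraries each), which is 55.1% to 55.8% of WT#1. POLE4-KO#2 stood at -0.91 (n = 3), or 53.3% of WT#1. Low levels were not tied to a genotype, since 4 WT clones had them too. WT#2 stood at -0.86, WT#3 at -0.87, WT#7 at -0.87 and WT#8 at -0.86, or 54.7% to 55.1% of WT#1.

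The remaining lines were near or slightly above WT#1. MCM2-2A#1 had a level of 0.07 in January and 0.10 in March, MCM2-2A#2 had 0.08 in the clone table and 0.04 in the rescue table, MCM2-2A#5 had 0.07 and MCM2-2A#8 had 0.15. MCM2-R#2 stood at 0.04, POLE4-KO#1 at 0.09, POLE4-KO#3 at 0.02, WT#4 at 0.07 and WT#6 at 0.13. No line had a level between -0.84 and 0.02. In all, 9 of 18 lines other than WT#1 were low: 4 of 8 MCM2-2A lines, 1 of 3 POLE4-KO lines and 4 of 6 WT lines, while MCM2-R#2 was not. Libraries of a line differed by an SD of at most 0.05, so the gap between the levels was much wider than the spread within lines. The fibroblast markers also differed between lines, only in part along these levels. Their sum was 8.29 to 12.6 CPM in the 4 low MCM2-2A lines, 11.0 to 13.4 CPM in POLE4-KO#2 and 7.39 to 28.3 CPM in the 4 low WT lines, against 45.7 to 96.9 CPM in WT#1. It was also low in MCM2-2A#8 (10.6 to 12.2 CPM), POLE4-KO#1 (7.07 to 8.03 CPM) and WT#6 (4.97 to 6.01 CPM), which did not have the low level. In the remaining lines it ran from 28.7 CPM (MCM2-2A#2, clone table) to 172 CPM (MCM2-R#2). Col1a1 had the widest range of the 6 markers in the clone table (0.457 to 78.0 CPM), while Pdgfrb ran from 1.12 to 3.19 CPM there. The part of these markers in the regional level was not tested.

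**Figure D1:**
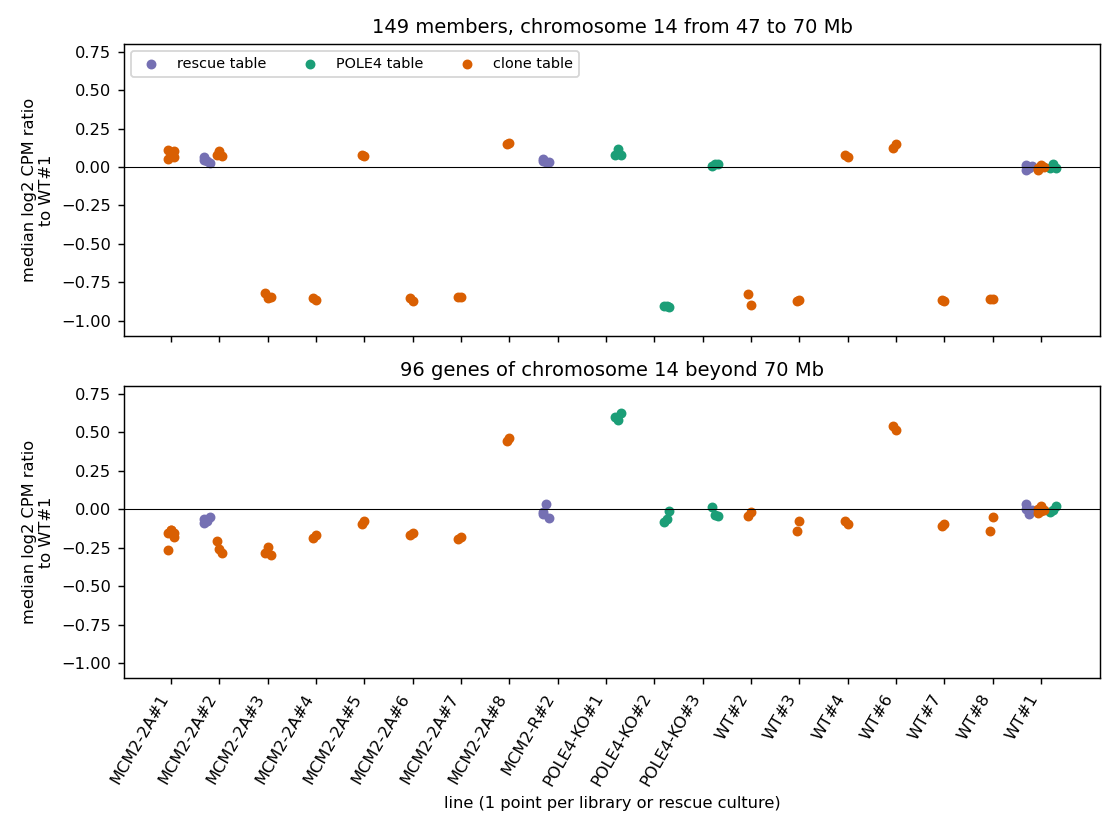
Median log2 CPM ratio to WT#1 of the 149 members (top) and of 96 genes of chromosome 14 beyond 70 Mb (bottom) by line, with 1 point per library or rescue culture and colours for the 3 tables. In the top panel 9 lines sit between -0.91 and -0.84 and the other lines between 0 and 0.15, and in the bottom panel MCM2-2A#8, POLE4-KO#1 and WT#6 stand above the rest.

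Single genes show these 2 levels in their own CPM. Supt16 encodes the large subunit of FACT, a histone chaperone that works at the replication fork and on transcribed genes (chr14:52160414-52197416, minus strand). It stood at 217, 219, 215 and 214 CPM in MCM2-2A#3, #4, #6 and #7. The other MCM2-2A clones had 378 (MCM2-2A#1, January), 425 (MCM2-2A#1, March), 374 (#2), 432 (#5) and 492 CPM (#8). WT clones had 217 CPM (WT#2), 228 (WT#3), 231 (WT#7), 249 (WT#8), 435 (WT#4) and 520 (WT#6), with 419.4 (August) and 412 (March) in WT#1. Both genotypes held clones of either level, and their ranges overlapped.

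Prmt5 encodes the main enzyme for symmetric arginine dimethylation and sat in the same pattern (chr14:54507187-54517525, minus strand). It had 87.9, 86.4, 80.9 and 86.7 CPM in MCM2-2A#3, #4, #6 and #7, and 161 to 181 CPM in the remaining MCM2-2A clones. WT#2, WT#3, WT#7 and WT#8 had 82.1, 91.7, 85.0 and 84.5 CPM, and the remaining WT clones 165 to 188 CPM.

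Hnrnpc, an RNA-binding protein of nascent transcripts and the most abundant member, moved less (chr14:52073377-52104028, minus strand). Its levels were 393, 373, 389 and 372 CPM in MCM2-2A#3, #4, #6 and #7, against 475 (August) and 529 (March) in WT#1. In WT#2, WT#3, WT#7 and WT#8 they were 371, 404, 407 and 422 CPM. All 8 lay below both WT#1 values, but by less than for Supt16.

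Mmp14, a membrane-bound matrix metalloprotease, moved more (chr14:54431612-54445364, plus strand). It had 5.93, 5.65, 5.83 and 5.19 CPM in MCM2-2A#3, #4, #6 and #7, and 8.66, 6.24, 5.89 and 5.66 CPM in WT#2, WT#3, WT#7 and WT#8, against 27.0 and 22.7 CPM in WT#1. The other MCM2-2A clones had 19.4 to 35.6 CPM and the other WT clones 18.7 to 21.6 CPM.

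**Figure D2:**
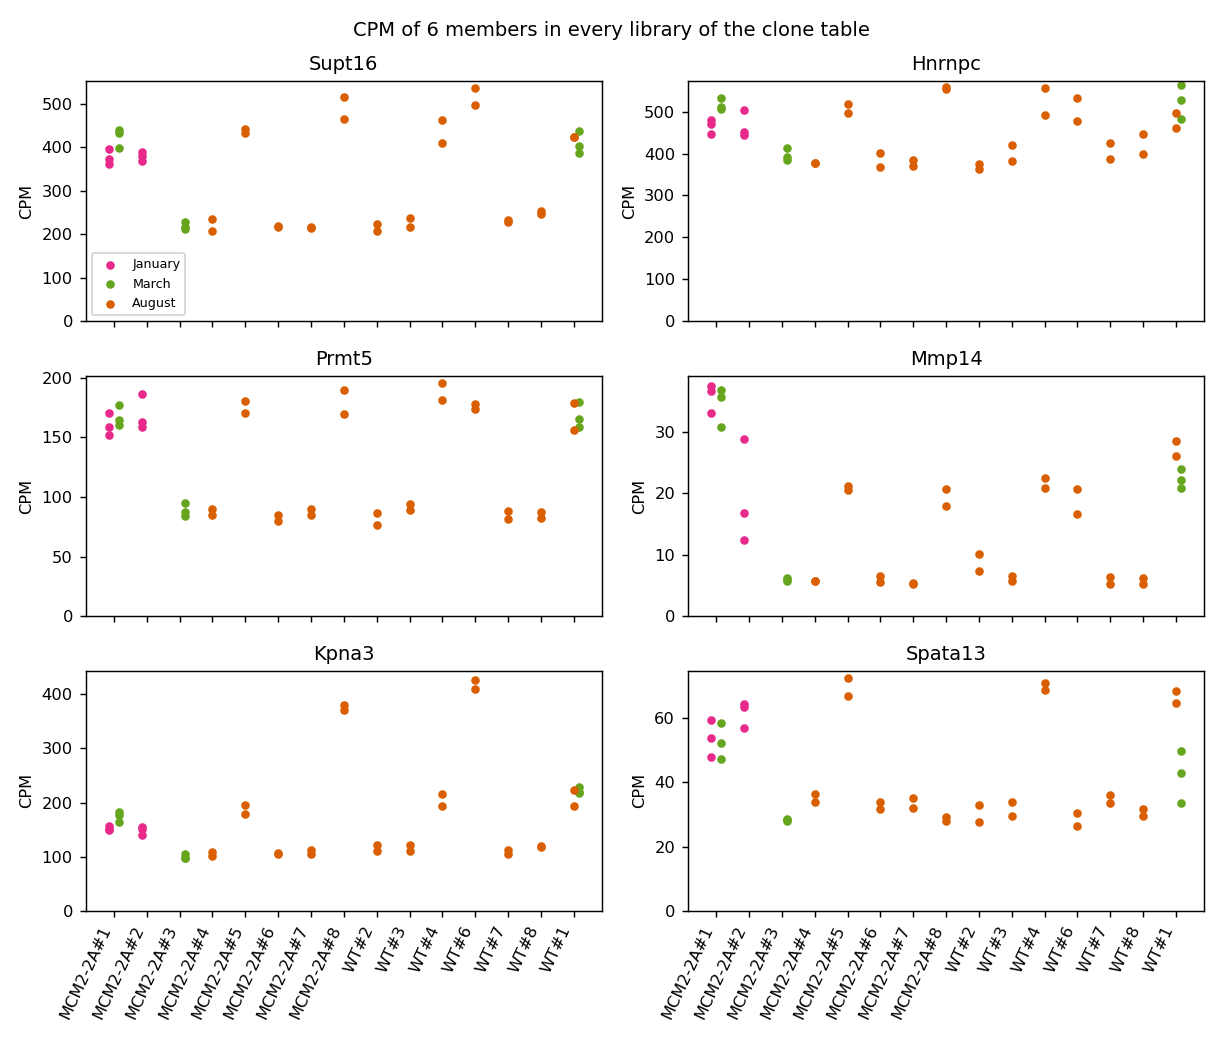
CPM of 6 members in every library of the clone table, by line, with colours for the January, March and August batches and axes that start at 0. Supt16 and Prmt5 fall into 2 levels, Hnrnpc differs less between lines and Mmp14 more, and Kpna3 is highest in MCM2-2A#8 and WT#6, where Spata13 is low.

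The promoters of these genes are shown because they are the members that followed the regional level (Supt16, Prmt5), moved less than it (Hnrnpc) and moved more than it (Mmp14). Each sequence is the 250 bases before the RefSeq start on GRCm38.p6, 5′ to 3′ on the gene's strand, with CG pairs in capitals. The pair CG reads the same on the other strand.
Supt16, chr14:52197240-52197489, minus: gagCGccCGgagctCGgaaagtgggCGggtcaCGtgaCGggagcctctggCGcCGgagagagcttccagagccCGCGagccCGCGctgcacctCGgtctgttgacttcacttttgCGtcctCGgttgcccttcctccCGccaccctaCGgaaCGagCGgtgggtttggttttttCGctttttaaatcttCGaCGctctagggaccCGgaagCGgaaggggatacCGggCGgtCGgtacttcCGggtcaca
Prmt5, chr14:54517471-54517720, minus: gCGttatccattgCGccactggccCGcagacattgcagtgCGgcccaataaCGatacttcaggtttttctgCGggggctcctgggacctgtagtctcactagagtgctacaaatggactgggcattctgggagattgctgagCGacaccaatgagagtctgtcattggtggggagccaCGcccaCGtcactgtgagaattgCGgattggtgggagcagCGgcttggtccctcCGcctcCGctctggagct
Hnrnpc, chr14:52104022-52104271, minus: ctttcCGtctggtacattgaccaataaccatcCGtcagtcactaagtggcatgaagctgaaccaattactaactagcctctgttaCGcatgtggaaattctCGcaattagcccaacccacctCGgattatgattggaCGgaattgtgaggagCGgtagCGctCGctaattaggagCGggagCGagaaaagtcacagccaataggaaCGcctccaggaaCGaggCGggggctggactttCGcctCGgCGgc
Mmp14, chr14:54431348-54431597, plus: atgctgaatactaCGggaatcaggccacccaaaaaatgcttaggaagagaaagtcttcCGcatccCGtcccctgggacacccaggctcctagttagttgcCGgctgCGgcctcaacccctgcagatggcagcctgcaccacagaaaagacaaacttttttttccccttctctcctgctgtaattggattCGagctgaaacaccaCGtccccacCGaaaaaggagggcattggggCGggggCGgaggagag
The windows hold 28 (Supt16), 13 (Prmt5), 17 (Hnrnpc) and 10 (Mmp14) CG pairs, and 7.26%, 31.8%, 23.6% and 38.2% of all 27025 promoters in the table hold at least as many in the same 250 bases. Of the 149 members 103 matched the promoter table, with a median of 20 CG pairs in 300 bases, against 7 over all promoters. The 27025 promoters are not limited to genes above 3 CPM, as the members are. This difference can therefore not be read as a trait of the interval.

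Along the chromosome the low level had edges near those of the interval. Wdhd1, a replisome protein that links the helicase to DNA polymerase alpha, is the first member (chr14:47240944-47276857, minus strand). Over the 9 low lines its log2 ratio to WT#1 ran from -1.04 to -0.71. Gmfb, upstream of it, ran from -0.60 to -0.10, and Samd4 between them from -3.88 to -0.63. At the other end Nefl (chr14:68083863-68089095), a neurofilament gene, ran from -2.63 to -0.67, whereas Slc25a37 (69.24 Mb), the mitochondrial iron importer mitoferrin, ran from -0.24 to 0.04. The 8 members from Slc25a37 to Rhobtb2, the last member (chr14:69784990-69805636, minus strand), had medians between -0.36 and -0.11 in these lines. Loxl2, a collagen-modifying oxidase, was the member of that end with the lowest ratios (-1.69 to -0.43). The rest of the chromosome did not share the low level. The median of 132 genes below 47 Mb stayed between -0.07 and 0.03 in all lines. Over the 9 low lines the median of the 96 genes beyond 70 Mb ran from -0.27 (MCM2-2A#3) to -0.03 (WT#2). The medians of the 18 other autosomes ran from -0.09 to 0.17 over all lines.

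**Figure D3:**
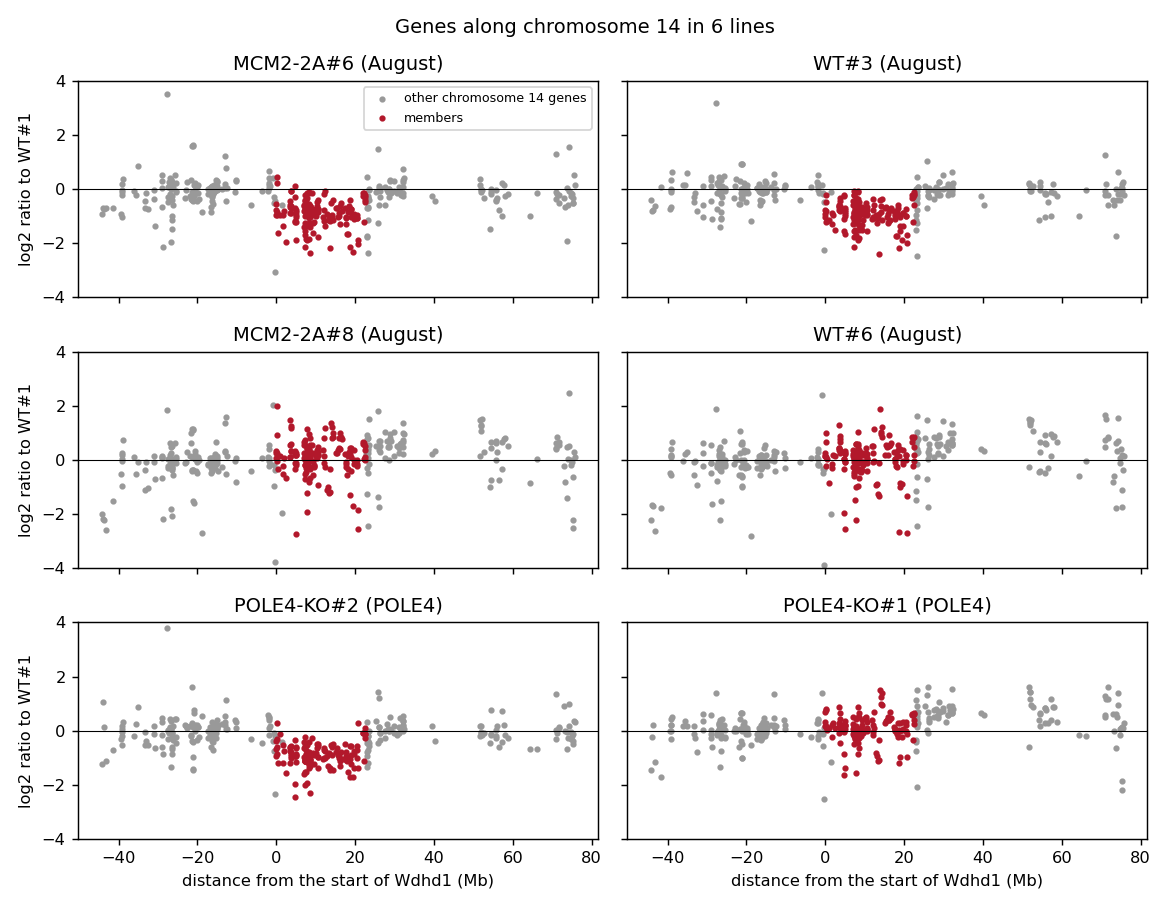
Log2 CPM ratio to WT#1 of genes along chromosome 14 in 6 lines, against the distance of each gene from the start of Wdhd1 in Mb, with members in red and other genes of the chromosome in grey. Members lie below 0 as a block in MCM2-2A#6, WT#3 and POLE4-KO#2, whereas in MCM2-2A#8, WT#6 and POLE4-KO#1 the genes beyond 70 Mb lie above 0.

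Most members took part in the low level, in each of the 9 lines. Of the 141 members from Wdhd1 to Nefl, 134 were below WT#1 in all 9 lines and 119 had all 9 ratios below -0.25. In single lines between 144 (MCM2-2A#3 and #4) and 149 (WT#3) of all 149 members were below WT#1, and the middle 50% of members spanned -1.11 to -0.64 in POLE4-KO#2 and -1.13 to -0.66 in WT#3. The extremes were named after their values were seen. Atg14 (autophagy initiation), Hnrnpc, Acin1 (a splicing and apoptosis factor) and Irf9 (interferon signalling) never went below -0.5. At the other extreme 13 members had a ratio below -2 in at least 1 line, among them Mmp14, Sall2, Nfatc4, Clu and Dpysl2.

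**Figure D4:**
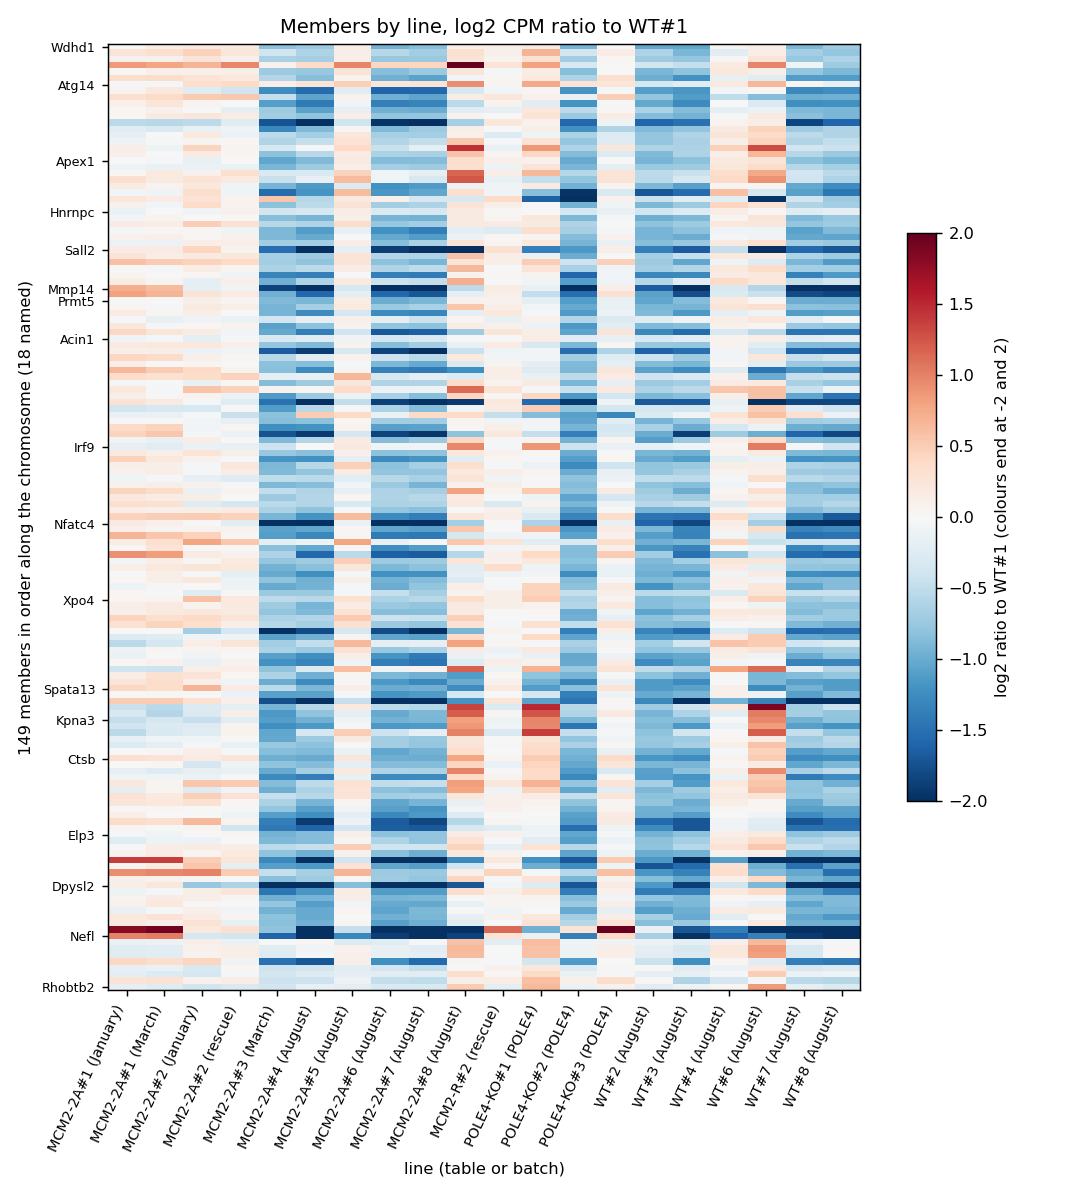
Log2 CPM ratio to WT#1 of the 149 members, in order along the chromosome from top to bottom, in each line and table or batch, with colours that end at -2 and 2. The 9 low lines are blue over nearly the whole interval except its last members, and MCM2-2A#8, WT#6 and POLE4-KO#1 each show a short blue block at Spata13 and a red block just below it.

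Most members of the role lists took part. The lists are given with their slope, which is the change of a member's log2 CPM per unit change in the median log2 CPM of the other members over the 12 August clones, so that 1 means a member moved with the interval and 0 that it did not. Over all members the median slope was 1.05. Among 9 members that work in DNA replication, repair and telomeres the median was 0.98 (0.91 to 1.30), and the base excision repair endonuclease Apex1 had 48.5% to 56.8% of its WT#1 level over the 9 low lines. The cohesin acetyltransferase Esco2 had 57.5% to 77.1% and Wdhd1 48.7% to 60.9%. No slope of this list was below 0.91.

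Chromatin and transcription was the largest list, with 25 members and a median slope of 1.03 (0.34 to 1.85). Supt16 had 50.7% to 59.0% of WT#1 over the 9 lines, the chromodomain remodeller Chd8 57.2% to 68.2%, and Ajuba, a LIM protein of Hippo signalling, 40.7% to 54.5%. Its lowest slope was that of Acin1 and its highest that of Nfatc4. In 13 members of the proteasome and ubiquitin list the slope ran from 0.84 to 1.44 with a median of 1.03. Psmb5, the chymotrypsin-like catalytic subunit of the proteasome, had 45.3% to 59.8% of WT#1, and the ubiquitin-like modifier Nedd8 50.1% to 63.6%. The list's most abundant member, Zfp219 (51.9% to 69.5%), is a zinc finger transcription factor.

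The 8 cell division members had a median slope of 1.03 (0.38 to 1.30, lowest Chmp7), with the phosphatase subunit Ppp2r2a at 46.4% to 59.5% and the spindle protein Dlgap5 at 53.3% to 60.4% of WT#1. In mitochondria and metabolism (14 members) the median was 0.93 (0.30 to 1.43), with the lowest slope in Pck2, mitochondrial phosphoenolpyruvate carboxykinase. There the purine nucleoside phosphorylase Pnp had 67.3% to 94.4% of WT#1, the mitophagy receptor Bnip3l 51.2% to 58.3%, and Fdft1, squalene synthase, 48.7% to 57.3%. Pnp shares sequence with Pnp2, so its counts are uncertain. The 22 members of membrane traffic, transport and cytoskeleton had a median of 1.09 (0.45 to 1.58), with the nuclear import receptor Kpna3 at 46.4% to 57.0%, the nuclear export receptor Xpo4 at 55.6% to 69.2% and the kinesin-binding Ktn1 at 32.8% to 46.7%. The 11 secreted, matrix and signalling members had the highest median, 1.16, and the widest range, 0.45 to 1.98. Among them were Extl3 (heparan sulphate synthesis) at 41.1% to 51.0%, the lysosomal protease Ctsb at 42.0% to 51.6% and the death receptor Tnfrsf10b at 65.9% to 107% of WT#1. Of the germ cell list only Ccnb1ip1 was a member, with a slope of 0.94.

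Members with a low slope were few. Of 149 members 89 had a slope within 0.25 of 1, 14 a slope below 0.5 and 15 a slope above 1.5. Among the 115 members with at least 10 CPM the lowest slopes were those of Arhgef40 (-0.19), R3hcc1 (0.32), Acin1 (0.34), Chmp7 (0.38), Sall2 (0.41) and Slc25a37 (0.42). R3hcc1, Chmp7 (an ESCRT-III factor of nuclear envelope sealing) and Slc25a37 lie among the last 8 members, beyond the edge at Nefl. Inside the edges, Hnrnpc (0.43, jackknife SE 0.05) and Acin1 (0.34, SE 0.07) had low slopes at more than 100 CPM, and neither reached 0.5 when any 1 clone was left out. Arhgef40, a guanine nucleotide exchange factor (SE 0.52), and the zinc finger factor Sall2 (SE 0.78) had low slopes with a wide error. Sall2 had 4.27 CPM in MCM2-2A#8 and 4.71 in WT#6, which are not low lines, against 27.0 CPM in WT#1 of August. Over the 9 low lines its log2 ratio to WT#1 ran from -2.09 to -1.14, so Sall2 did not escape the low level there. Gm49336 (0.46, SE 0.34) and Spata13 (0.49, SE 0.43), at mean CPM of 49.8 and 43.5, were also below 0.5, and in MCM2-2A#8 and WT#6 they too stood below WT#1. Over the 9 low lines their log2 ratios ran from -0.97 to -0.62 (Gm49336) and from -1.13 to -0.52 (Spata13), so neither escaped the low level.

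Among the highest slopes were those of Mmp14 (1.98, SE 0.24), Ctsb (1.65), Pnma2 (1.63), Mtmr9 (1.59) and Lrp10 (1.58). Mtmr9 is a phosphoinositide phosphatase relative and Lrp10 a lipoprotein receptor relative. The 6 most abundant members were Hnrnpc, Supt16 (slope 1.15), Mapk1ip1l (0.96), the threonine dehydrogenase Tdh (1.35), Kpna3 (1.47) and Ajuba (1.10). Regional levels of the 9 low lines were -0.91 to -0.84. Median log2 ratios to WT#1 over these lines were -0.66 (Tdh), -0.92 (Kpna3), -1.01 (Ctsb) and -1.28 (Mtmr9). Tdh thus fell less than the interval there, and Kpna3 about as far. Tdh, Kpna3, Ctsb and Mtmr9 lie in stretches that stood above WT#1 in some clones without the low level, as given below. Those clones enter the slopes too, and their part in these slopes was not tested. Across members the slope showed little relation to mean CPM (Spearman correlation -0.09, n = 149 members), to exonic length (-0.0021), to position (0.06) or to promoter CG pairs (-0.05, n = 103). These correlations are descriptions across neighbouring genes of the same libraries.

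**Figure D5:**
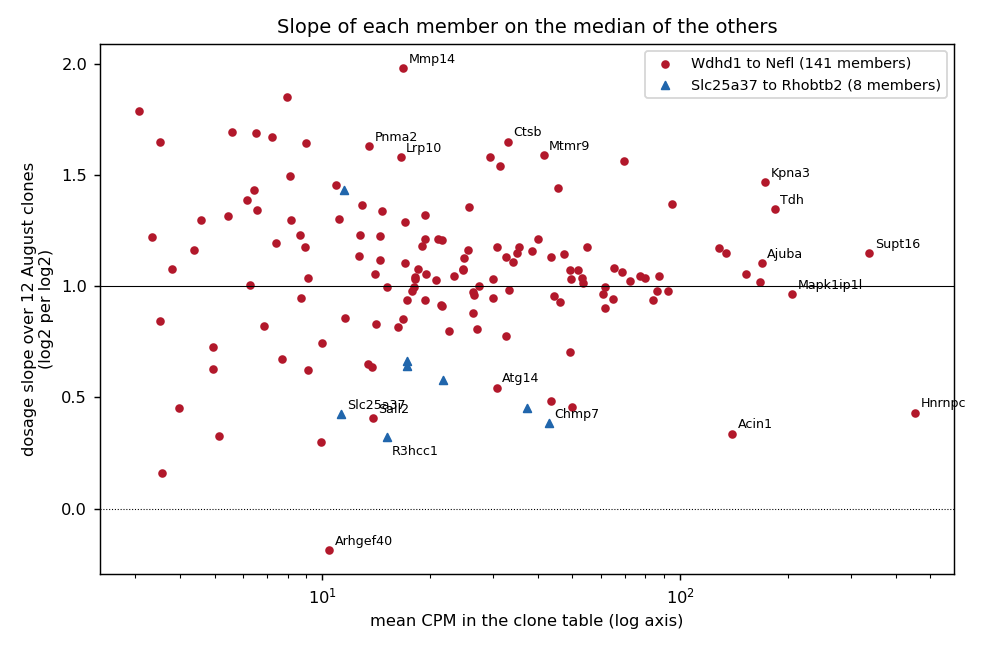
Slope of each member's log2 CPM on the median of the other members over 12 August clones, against its mean CPM in the clone table on a log axis, with the 141 members from Wdhd1 to Nefl as red circles and the last 8 as blue triangles. Most points lie near 1 at every level, Hnrnpc and Acin1 lie near 0.4 at high CPM, and Mmp14 is the highest at 1.98.

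A second pattern crossed the interval in 3 lines that were not low, MCM2-2A#8, POLE4-KO#1 and WT#6. In these lines the 3 members from Gm49336 to Spata13 (60.21 to 60.76 Mb) had medians of -1.12, -0.95 and -0.92, as low as in the 9 low lines. Spata13, a Rac and Cdc42 exchange factor, had 28.6 CPM in MCM2-2A#8 and 28.6 in WT#6, against 65.7 in WT#1 of August, and 28.8, 32.9 and 31.2 CPM in POLE4-KO#1, against 69.1, 69.0 and 61.7 in WT#1. Less than 1 Mb further on, Ebpl, Kpna3, Spryd7 and Trim13 stood well above WT#1. Their log2 ratios ran from 0.82 to 1.22 in MCM2-2A#8, from 0.96 to 1.38 in POLE4-KO#1 and from 0.83 to 1.21 in WT#6. Kpna3 had 373.6 CPM in MCM2-2A#8 and 420.8 in WT#6, against 208 in WT#1 of August.

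From Rnaseh2b to Pinx1 (62.29 to 63.92 Mb, 9 members) the same 3 lines had medians of 0.43, 0.40 and 0.50, and from Kif13b to Nefl (23 members) of -0.15, -0.0093 and -0.0025. The last 8 members were again above WT#1, by 0.43, 0.58 and 0.58, as were the 96 genes beyond 70 Mb, by 0.45, 0.60 and 0.53. In the other lines the genes beyond 70 Mb stood between -0.27 and -0.02. The bounds of these stretches were set after the values were seen.

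The POLE4 table gives tests of single members within a table that has 3 libraries per line. Calls come from edgeR's quasi-likelihood test over all features, with a Benjamini-Hochberg adjusted p under 0.01 and a log2 fold change past 0.58 in either direction. In POLE4-KO#2 121 of 148 tested members were called, all of them lower than in WT#1. Of all 16790 features 11.6% were called, 1175 of them lower. The interval was chosen with this level known, so the count describes the line. Every role list was affected, with 22 of 25 chromatin and transcription members, 9 of 9 of DNA replication, repair and telomeres, 11 of 13 of proteasome and ubiquitin, 12 of 14 of mitochondria and metabolism, 7 of 8 of cell division, 15 of 22 of membrane traffic and 8 of 11 secreted, matrix and signalling members called lower. Supt16 had 271, 248 and 290 CPM in POLE4-KO#2, against 498.7, 505.7 and 537 CPM in WT#1 (log2 fold change -0.93). The ranges did not overlap. The 6 largest changes among called members were in Arhgef40 (-2.52), Nfatc4 (-2.36), Mmp14 (-2.04), Ndrg2 (-2.01), the calcium-store protein Jph4 (-1.98) and Dpysl2 (-1.74). Of the 27 members not called, 7 were among the last 8, and Hnrnpc (-0.39, 410 to 478 CPM against 547 to 615), Acin1 (-0.26), Irf9 (-0.46) and Atg14 (0.25) were among the rest.

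In POLE4-KO#1 31 of 148 members were called against WT#1, 19 higher and 12 lower, against 11.6% of all features (3.63% higher, 7.97% lower). Ebpl, Kpna3, Spryd7 and Trim13 were called higher. Kpna3 had 443.8, 471 and 490.4 CPM in POLE4-KO#1, against 224.6, 239 and 241 CPM in WT#1, a change of 1.00 on the log2 scale (SE 0.08) with an edgeR adjusted p of 6.90e-08. The ranges did not overlap. Trim13, a ubiquitin ligase of the endoplasmic reticulum, rose by 1.39 and Ebpl, a sterol isomerase relative, by 1.28. All 3 members from Gm49336 to Spata13 were called lower, as were Arhgef40 (-1.62), Jph4 (-1.56) and Sall2 (-1.35). Sall2 had 6.77, 9.19 and 7.23 CPM, against 20.6, 20.1 and 18.6 in WT#1. Of the last 8 members, 5 were called higher. Supt16 was at 608, 557.6 and 642 CPM, against 498.7, 505.7 and 537 in WT#1, and was not called (0.23, edgeR adjusted p = 0.0349).

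In POLE4-KO#3 few members were called against WT#1, 2 of 148, against 3.01% of all features, and 42 members had an unadjusted edgeR p under 0.05. Nefm, a neurofilament gene, rose to 9.92, 10.6 and 8.36 CPM in POLE4-KO#3, against 1.97, 2.31 and 2.27 CPM in WT#1, a change of 2.13 (SE 0.19) with an edgeR adjusted p of 3.66e-06. The transcription cofactor gene Ttc5 fell to 28.6, 26.4 and 27.9 CPM, against 45.5, 41.1 and 42.4 CPM (-0.64, SE 0.10, edgeR adjusted p = 0.000699). Neither gene's ranges overlapped. Without the second of the WT#1 libraries the count was 4. Nefm overlaps Nefl on the opposite strand, and how the counting treated strand is not given in the sources used here.

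Clones of the same POLE4 genotype differed from each other in the interval. Between POLE4-KO#1 and POLE4-KO#2, 127 of 148 members were called, 126 of them higher in POLE4-KO#1 (9.99% of all features, 4.03% higher and 5.96% lower). The largest was Spryd7, with 16.95, 19.3 and 18.8 CPM in POLE4-KO#1, against 3.76, 3.11 and 3.00 CPM in POLE4-KO#2 (2.48). Between POLE4-KO#2 and POLE4-KO#3, 122 members were called, all lower in POLE4-KO#2 (10.4% of all features, 8.34% lower), led by Arhgef40 (-2.56) and Clu (-2.22), the secreted chaperone clusterin. Between POLE4-KO#1 and POLE4-KO#3 it was 29, 18 higher and 11 lower in POLE4-KO#1 (16.5% of all features, 4.01% higher and 12.5% lower). There Nefm differed most (-3.11, edgeR adjusted p = 1.32e-08), ahead of Clu (-1.68) and Arhgef40 (-1.67). These comparisons share libraries and are not independent.

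In the rescue table few members were called between lines. Against WT#1, 2 of 148 members were called in MCM2-2A#2, against 2.76% of all features, and 45 members had an unadjusted edgeR p under 0.05. Lgals3, the galactose-binding lectin galectin-3, rose to 40.1, 46.3, 41.4 and 42.2 CPM in MCM2-2A#2, against 24.9, 18.3, 24.6 and 22.6 CPM in WT#1, a change of 0.91 (SE 0.12) with an edgeR adjusted p of 0.000245. Dpysl2, a microtubule-binding protein of growing axons, fell to 24.8, 21.6, 25.01 and 26.7 CPM, against 39.2, 33.8, 41.8 and 40.9 CPM (-0.67, SE 0.09, edgeR adjusted p = 0.000277). The 4 MCM2-2A#2 cultures did not overlap with WT#1 for either gene. The sum of the 5 primitive endoderm markers moved with them, at 27.2 to 39.1 CPM in MCM2-2A#2 and 9.82 to 12.6 CPM in MCM2-R#2, against 9.14 to 11.97 CPM in WT#1. None of the 5 was at 0, and their part in these changes was not tested.

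The same genes were called between MCM2-R#2 and MCM2-2A#2, again 2 of 148 (1.36% of all features), and 41 members had an unadjusted edgeR p under 0.05. Lgals3 had 24.0, 23.9, 35.2 and 26.3 CPM in MCM2-R#2 (-0.64 against MCM2-2A#2, edgeR adjusted p = 0.00598). Dpysl2 had 40.8, 40.1, 36.4 and 32.1 CPM (0.61, edgeR adjusted p = 0.00128). Both lay close to the fold limit. No member was called without MCM2-2A#2 culture 2, MCM2-R#2 culture 1 or MCM2-R#2 culture 2, and 1 without MCM2-2A#2 culture 1, 3 or 4 or MCM2-R#2 culture 4. Between MCM2-R#2 and WT#1 edgeR called 0 of 148 members (0.299% of all features) and DESeq2 called 0, with 22 members at an unadjusted p under 0.05. These comparisons share the MCM2-2A#2 or WT#1 cultures.

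Over the clones the genotype did not separate the members. The units were 9 MCM2-2A and 8 WT sums of a clone and batch, so MCM2-2A#1 and WT#1, each in 2 batches, entered 2 times. The January batch held only MCM2-2A#1 and MCM2-2A#2. With batch in the fit, the January units therefore add nothing to the difference between genotypes. MCM2-2A#2 has no other unit among the clones, so it was not compared with WT there. With batch as a covariate, edgeR called 0 of 149 members between MCM2-2A and WT clones, against 0.676% of all features, DESeq2 called 0, and 3 members had an unadjusted p under 0.05. The median log2 fold change of the members was -0.10, against -0.03 over all features. With August alone, where each clone enters 1 time, 0 members were called and the median was -0.04. Over all batches it was -0.24 without MCM2-2A#8, 0.04 without WT#1 and nearly 0 without WT#6. Lgals3 had the lowest adjusted p (0.84, SE 0.29, edgeR adjusted p = 0.102), with 19.9 to 64.6 CPM in MCM2-2A clones and 9.69 to 32.2 CPM in WT clones, which overlap. Dpysl2 (-0.80, SE 0.41, edgeR adjusted p = 0.277) was not called either. Both genotypes held low and other lines in the interval.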

How the data were processed

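RNA was counted in mouse ESC lines in 3 tables of 68 columns, of which 3 could be tied to no sample and were not used. The deposited values are unscaled counts for genes and repeat subfamilies, for which the submitters' processing notes name Trimmomatic 0.39 (trimming), STAR 2.7.1a (alignment, mm10) and featureCounts. Names and positions came from a GENCODE annotation on mm10, which matched 55154 of 55335 gene rows. The 1146 repeat rows stayed in the fits. Runs of a rescue culture were summed, and libraries of a clone and batch were summed for the test between genotypes. Counts were scaled by TMM, filtered with filterByExpr and tested with edgeR 4.0.16 (R 4.3.3, quasi-likelihood). CPM on the log2 scale had a prior count of 2. DESeq2 1.42.0 and other settings were alternatives. On simulated counts the test recovered 100 (rescue), 99 (POLE4) and 91 (clones) of 100 genes changed by 1 on the log2 scale. Recovery of the members themselves, whose levels differ between clones of a genotype, was not tested. Between MCM2-2A and WT clones the SE of the log2 fold change was 0.25 for Supt16, 0.48 for Mmp14 and 0.11 for Hnrnpc. The study calls the libraries of a line biological replicates in all 3 tables, and the sources used here do not say how their cultures were separated. Each line is 1 clone, so p-values between lines measure the spread between libraries or cultures of a clone.

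Replicate numbers were shared by the POLE4-KO libraries, and deviations of same-numbered libraries correlated above 0.1 in 9 of 9 pairs, against 0 of 18 other pairs, so these were treated as paired in an alternative. Members were named by a rule: the 6 most abundant, the 6 lowest and 6 highest slopes with at least 10 CPM, up to 6 largest called changes per comparison, the first and last member, those at the CPM limit, and up to 3 examples per role list by CPM. Other genes (among them Prmt5, Spata13, Irf9, Atg14, Gmfb, Samd4, Nefl, Loxl2 and Pnp2) were chosen after their values were seen. The members, the interval and the lists were chosen with earlier results of these data known. Some members that the rule names are not reported here.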

Additional observations from a re-analysis of the deposited data

Results flagged for a closer look

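Single rescue cultures stood apart from the other 3 of their line in 13 of 149 groups examined (the 48 named members in each rescue line, and regional levels), where chance gives about 1 in 20. In MCM2-2A#2 the lowest culture had 212 CPM of Ajuba, 23.6 CPM of Mmp14 and 18.3 CPM of Rhobtb2. In MCM2-R#2 the lowest culture had 196 CPM of Acin1 and 91.1 CPM of Ktn1, and the highest had 7.29 CPM of Ebpl and 319 CPM of Tdh. In WT#1 the lowest culture had 15.3 CPM of Clu, 55.6 CPM of Fdft1, 22.2 CPM of Mmp14 and 16.4 CPM of Pnma2, and the highest had 205 CPM of Kpna3 and 31.1 CPM of Sall2. None of these members was called in the rescue comparisons.

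Clones of the same knockout differed from each other, in edgeR's test of the difference itself, for 127 members between POLE4-KO#1 and POLE4-KO#2, 29 between POLE4-KO#1 and POLE4-KO#3 and 122 between POLE4-KO#2 and POLE4-KO#3. Over all features the shares called were 9.99%, 16.5% and 10.4%. The 29 members, 19.6% of those tested, are thus near the share over all features. The interval was chosen with these levels known, so the counts describe the lines.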

How the results depend on the processing

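The number of low lines, 9, stayed at 9 when 1 library of each line was left out. With the mean of the 7 August WT clones as the reference, 0 August lines lay below -0.5, against 7 with WT#1, since that mean holds 4 low clones. With no fold limit, called members numbered 9 in MCM2-2A#2 over WT#1, 49 in POLE4-KO#1 over WT#1, 6 in POLE4-KO#3 over WT#1 and 61 in POLE4-KO#1 over POLE4-KO#3. With no filter on low counts they numbered 1 in MCM2-R#2 over WT#1 and 4 in POLE4-KO#3 over WT#1. With single libraries as units 1 member was called between MCM2-2A and WT clones. Leaving out 1 library gave 2 to 2 calls for MCM2-2A#2 over WT#1, 0 to 0 for MCM2-R#2 over WT#1, 0 to 2 for MCM2-R#2 over MCM2-2A#2, 26 to 32 for POLE4-KO#1, 114 to 121 for POLE4-KO#2 and 2 to 4 for POLE4-KO#3 over WT#1, 122 to 130 for POLE4-KO#1 over #2, 28 to 33 for POLE4-KO#1 over #3 and 115 to 124 for POLE4-KO#2 over #3. Leaving out 1 clone gave 0 to 0 between genotypes, 85 to 94 slopes near 1 and 11 to 16 below 0.5.

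With a replicate block the rescue calls were 2, 0 and 2, as without it, where same-numbered cultures correlated above 0.1 in only 5 of 12 pairs. The block gave 129, 31 and 122 calls between the POLE4-KO lines, where the numbers pair the libraries, and 0 between August clones. No called value changed sign. The median over the members between MCM2-2A and WT clones, which was not called, was 0.05 with the block in August alone. It was -0.10 without the block over all batches, so these 2 values differ in batches as well as in the block. In August no other clone shared the replicate numbers of the reference WT clone, so the block could not pair that clone's libraries. The effect of pairing on this median was not tested. The cause of these differences was not tested unless stated.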

Other observations

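Ccnb1ip1, a meiotic crossover regulator that lies inside the interval, differed more between tables than between lines, with 1500 to 2966 CPM in the rescue table, 1879 to 3466 CPM in the POLE4 table and 10.8 to 26.5 CPM in the clone table, although WT#1 is in all of them. Zfhx2, a homeobox gene, had 79.6 to 143 CPM in the rescue table, 20.04 to 37.9 CPM in the POLE4 table and 16.9 to 64.5 CPM in the clone table.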
